A study of Caenorhabditis elegans with 22 samples.

Results

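The comparison set Caenorhabditis elegans kept for 20 h in 5% (v/v) ethanol against worms kept for 20 h in the same buffer with 0% ethanol, with 3 libraries in each group, taken by their column labels from the 22 libraries of the series. All worms were of the N2 laboratory strain, grown in synchrony on Escherichia coli OP50 plates at one temperature. About 1500 worms per sample were washed off the bacteria and placed in S-basal, a salt buffer, so the ethanol worms and the control worms had both been without food for 20 h. Another 4 libraries, collected at time zero before the transfer, served to say which of the 20 h groups had moved. PolyA RNA of whole worms was sequenced, and the unit described is the gene: 15310 of the 42048 genes in the table held enough counts to be tested. On stage the labels differ, giving L3 larvae in the protocols but L4 in the title. Transcripts of adult and germline genes were present at time zero, among them the yolk protein gene vit-2 at 12900 to 19600 CPM (counts per 1000000, with library sizes scaled by TMM factors) and the adult cuticle collagen gene col-19 at 1740 to 2400 CPM, so these markers go against a larval label.

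Ethanol enters worm tissues freely and is oxidised by alcohol and aldehyde dehydrogenases to acetate. Foreign small molecules are handled in the intestine by cytochrome P450 enzymes, by transferases that attach a sugar or glutathione, and by ABC transporters that pump the products out. Worms without food turn to stored lipid, to the glyoxylate cycle and to gluconeogenesis, and fertilised adults can retain embryos that develop inside the mother. The cuticle is a layer of collagens and cuticlins over the epidermis, rebuilt at each molt and laid down for the first time in the embryo before hatching. Whole-worm RNA therefore mixes the tissues of the mother with any sperm, oocytes and embryos she holds, and fewer cells of a type and less RNA per cell cannot be told apart in such samples.

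Totals of the 6 libraries at 20 h ran from 11854168 to 15302047 counts, and those of the 10 libraries with time zero from 11640152 to 15302047. The first principal axis of the deviations from group means carried 41.4% of their variance, and on it control replicate 1 stood apart from the other controls with a score of 58.3, against -30.6 and -27.7. Among the ethanol libraries replicate 3 scored 22.7, against -6.1 and -16.6, and at time zero replicate 1 scored highest, at 38.3. Results that rest on control replicate 1 or on ethanol replicates 2 or 3 are given with and without them. Longer genes tended to be lower in ethanol. Across the 13623 genes with a known exon length, the median log2 fold change was 0.25 in the shortest of 5 equal length groups (median 534 bases) and -0.34 in the longest (median 3080 bases), with a Spearman rho of -0.201 over genes, which are not independent replicates. The part of gene length in the results was not tested.

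Ethanol and control worms differed at 20 h in most of the genes tested. Of 15310 genes, 8142 passed an adjusted p of 0.05 (53.2%, edgeR quasi-likelihood test with Benjamini-Hochberg adjustment, which applies to every adjusted p below). Of these, 3833 were higher in ethanol (25.0% of genes tested) and 4309 were lower (28.1%). The log2 fold change was at least 1 in size for 5846 called genes and at least 5 for 558. The 3 ethanol libraries lay wholly above or below the 3 controls for 55.4% of genes. In 1215 called genes one of the groups held under 10 counts in all, so that their fold changes are imprecise.

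Time zero showed which side had moved. The control differed from time zero in 8442 genes (55.1%) and the ethanol group in 8119 (53.0%), so that neither 20 h group resembled the start. A group was counted as moved where its adjusted p against time zero was under 0.05 and its log2 fold change at least 1 in size, a rule under which a group counted as not moved has missed a threshold and is not shown to be unchanged. Among genes lower in ethanol, the most frequent class was that in which the control had moved and ethanol had not, with 1741 genes (11.4% of genes tested), in which the median log2 change from time zero was 0.14 in ethanol and 2.29 in the control. Ethanol alone had moved in 757 lower genes (4.94%), both groups the same way in 718, both in opposite ways in 234 and neither in 859. Among genes higher in ethanol, the control alone had moved in 818 (5.34%), with a median change from time zero of -0.52 in ethanol and -3.20 in the control, and ethanol alone in 700 (4.57%), with medians of 1.79 in ethanol and 0.27 in the control. Both had moved the same way in 1083 higher genes, in opposite ways in 97, and neither in 1135. In 815 of the 1083 the control lay farther from time zero than ethanol did. This holds by definition where both groups fell, since ethanol was the higher. At the limit itself, nhr-62 was just inside at 1.0024 in the control and T28B4.1 just outside at -0.9994. For ethanol, vps-32.1 lay at 1.0000 and T23F11.2 at -0.9996, so the classes have no gap between them.

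**Figure D1:**
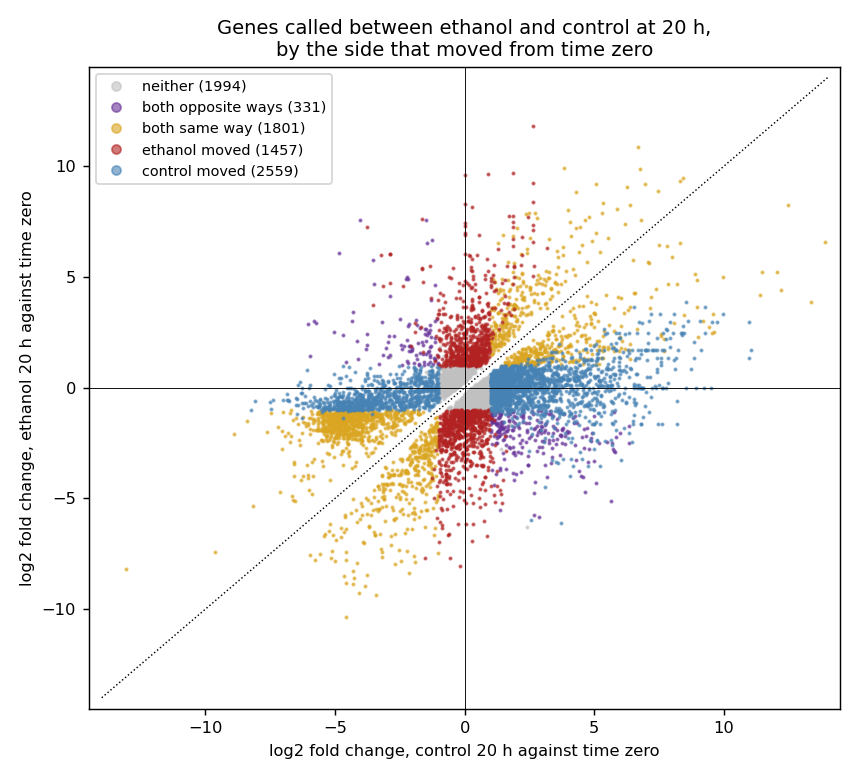
Log2 fold change of each called gene from time zero, in ethanol at 20 h (vertical axis) and in the control at 20 h (horizontal axis), with 1 point a gene coloured by the side that moved and the line of equal change dotted. The 2559 genes where the control alone moved lie along the horizontal axis, mostly to the right, and the 1457 where ethanol alone moved lie along the vertical axis.

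The 8 largest rises were those of ugt-37, fat-5, oac-14, cyp-35C1, C40H1.8, gba-2, ugt-25 and cyp-25A1. The UDP-glucuronosyltransferase gene ugt-37 stood at 119, 173 and 125 CPM in ethanol, against 0.382, 0.212 and 0.162 CPM in the control and 0.465 to 0.851 CPM at time zero. The groups were far apart, with a log2 fold change of 9.05 ± 0.28 (SE, n = 3 per group; adjusted p = 6.93e-15). The palmitoyl-CoA desaturase gene fat-5 stood at 148, 109 and 153 CPM in ethanol, 0.458, 0.212 and 0.162 CPM in the control and 15.9 to 21.9 CPM at time zero. Its ethanol level lay above the start and its control level below it, and ethanol exceeded the control by 8.90 ± 0.37 on the log2 scale (adjusted p = 1.95e-13). The acyltransferase-like gene oac-14 stood at 757, 1560 and 870 CPM in ethanol, against 3.82, 1.63 and 1.87 CPM in the control and 0.900 to 1.68 CPM at time zero, so that here ethanol alone had moved (log2 fold change 8.76 ± 0.40, adjusted p = 8.36e-13). Without control replicate 1 and ethanol replicate 3 the value for oac-14 was 9.43.

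The glucosylceramidase gene gba-2 held 121, 107 and 109 CPM in ethanol, against 0.611, 0.353 and 0.406 CPM in the control and 1.01 to 1.26 CPM at time zero (log2 fold change 7.92 ± 0.23). The P450 gene cyp-35C1 held 302, 459 and 264 CPM in ethanol, against 0.535, 1.13 and 0.892 CPM in the control and 41.0 to 52.7 CPM at time zero (8.62 ± 0.30). Every ethanol library was above every time zero library for both genes, and every control library below. Log2 fold changes of 7.25 to 7.99 were also found for C40H1.8, ugt-25 and cyp-25A1, which all counted as moved in opposite ways.

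The 8 largest falls included 3 collagen genes, 2 lipocalin genes, a gene of surface glycan synthesis and a P450 gene, beside F13B12.4, for which no function is given here. The collagen gene dpy-17, needed for normal body shape, stood at 2.42, 3.99 and 2.36 CPM in ethanol, against 667, 539 and 557 CPM in the control and 1.39 to 3.09 CPM at time zero. Ethanol libraries overlapped time zero while the controls stood far above both, and the log2 fold change of ethanol against control was -7.66 ± 0.35 (adjusted p = 8.07e-13). For the collagen gene dpy-14 the values were 1.11, 7.29 and 2.65 CPM in ethanol, 688, 895 and 853 CPM in the control and 0 to 0.309 CPM at time zero (-7.81 ± 0.55, and -8.73 without ethanol replicate 2). The collagen gene sqt-3 stood at 0.849, 3.45 and 1.73 CPM in ethanol, 1060, 311 and 349 CPM in the control and 7.27 to 18.4 CPM at time zero. By the rule both sides had moved, the control above time zero and ethanol below it. Its fold change of -8.18 ± 0.61 was -7.39 without control replicate 1 and -8.77 without ethanol replicate 2.

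The lipocalin and glycan genes fell by similar amounts. The lipocalin gene lpr-4 stood at 0.196, 0.614 and 0.173 CPM in ethanol, against 57.1, 79.4 and 74.1 CPM in the control and 0.450 to 1.40 CPM at time zero (log2 fold change -7.78 ± 0.43, and -8.50 without ethanol replicate 2). The related lpr-3, a component of the matrix that precedes the cuticle, had a log2 fold change of -7.96 ± 0.72 (-7.30 without control replicate 1 and ethanol replicate 3). For glf-1, a UDP-galactopyranose mutase of surface glycan synthesis, it was -8.08 ± 0.63, which became -10.63 without ethanol replicate 2 and -7.43 without replicate 3. F13B12.4 showed the lowest fold change of the genes that met the count limits, at 0.0653, 1.23 and 0.518 CPM in ethanol, 268, 237 and 280 CPM in the control and 0.838 to 0.990 CPM at time zero (-8.80 ± 0.46, and -9.70 without ethanol replicate 2). The P450 gene cyp-37B1 at -7.77 ± 0.45 was the only P450 among the 8 largest falls, and its control level too had risen above time zero (-8.48 without control replicate 1 and ethanol replicate 3).

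**Figure D2:**
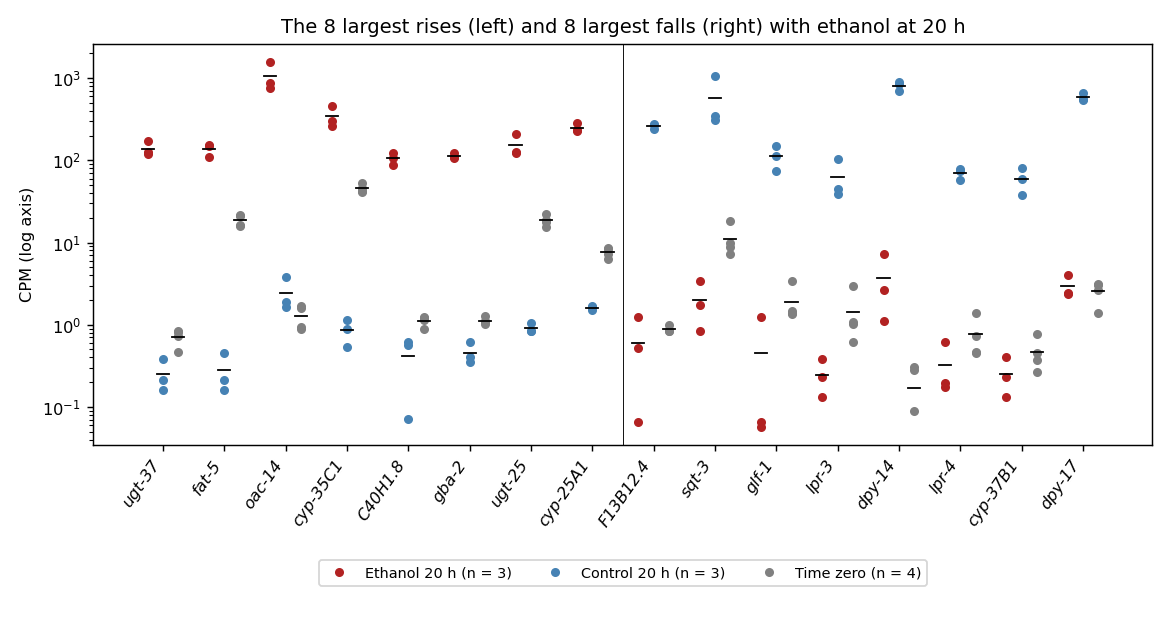
CPM on a log axis of the 8 genes with the largest rises and the 8 with the largest falls in each library of ethanol at 20 h, control at 20 h and time zero, with group means as bars and 1 value of 0 (dpy-14 at time zero) not drawn. Ethanol points stand highest in the left panel and control points in the right, while time zero lies near ethanol for most falls.

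Embryo genes were lower in ethanol, and in most of them the control was the side that had moved. Of 40 early zygotic embryo genes tested, 30 fell and 5 rose with ethanol (75.0% and 12.5%, beside 28.1% and 25.0% of all genes), with a median log2 fold change of -3.23 beside -0.06 over all genes. The 5 rises became 2 without ethanol replicate 2 and 3 without control replicate 3. The control alone had moved in 22 of the 30. Of 30 transcription factors of embryonic cell fate, 23 fell and 1 rose, with medians against time zero of 0.41 in ethanol and 2.52 in the control. The homeobox gene ceh-27 stood at 1.18, 0.997 and 1.15 CPM in ethanol, against 13.5, 17.7 and 13.6 CPM in the control and 0.336 to 0.928 CPM at time zero (log2 fold change -3.74 ± 0.29, adjusted p = 1.30e-09). The homeobox gene ceh-43 was lower by a similar amount (-2.94 ± 0.21), although its ethanol level of 4.89 to 5.68 CPM was also above the 1.86 to 2.40 CPM of time zero. The early zygotic genes vet-6 and vet-1 had log2 fold changes of -5.22 ± 0.34 and -3.96 ± 0.33. The differences in these 4 genes kept their call when each 20 h library was left out in turn.

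The hatching enzyme gene hch-1, a protease that digests the eggshell, was the extreme case. It held 0, 0.23 and 0.173 CPM in ethanol and 107, 112 and 83.7 CPM in the control, and no count in any of the 4 time zero libraries. Set against a floor of 3 counts over the time zero group, the pooled control level was at least 1680-fold higher than at time zero. The 6 counts in ethanol make its fold change imprecise, and no fold is given. Summed over the list, the cell fate factors came to 386 to 397 CPM in ethanol, 632 to 687 CPM in the control and 292 to 324 CPM at time zero, with no overlap between the groups. The summed early zygotic list was also lower in ethanol, but highest at time zero, at 316 to 362 CPM in ethanol, 405 to 429 CPM in the control and 518 to 545 CPM at time zero. Most of the time zero sum was pes-9, picked out here after its values were seen, which averaged 114 ± 10.6 CPM in ethanol, 92.9 ± 11.2 CPM in the control and 346 ± 16 CPM at time zero (SD).

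Oocyte and eggshell genes did not follow the embryo genes. Of 22 tested, 2 fell and 1 rose (9.09% and 4.55%, both below the shares over all genes), with a median of -0.21. With single 20 h libraries left out 0 to 3 rose. The 2 that fell were perm-2 and perm-4, which encode proteins of the eggshell permeability barrier, with log2 fold changes of -1.1 ± 0.22 and -1.22 ± 0.28. The eggshell proteoglycan gene cpg-1 did not pass (-0.37 ± 0.62, adjusted p = 0.641), at 338, 392 and 778 CPM in ethanol and 1120, 474 and 362 CPM in the control, and the sign changed to 0.27 without control replicate 1. The summed list overlapped between the groups, at 6910 to 9460 CPM in ethanol, 8640 to 11500 CPM in the control and 6150 to 14700 CPM at time zero.

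Genes of cuticle building followed the embryo genes. Among molting genes 19 of 22 fell and none rose (86.4% lower, median -3.87, or -3.12 without control replicate 1, and 1 rise without ethanol replicate 2), with medians against time zero of -1.76 in ethanol and 3.29 in the control, and 10 of the 19 had moved in opposite ways. Among cuticlins 26 of 29 fell and none rose (25 and 2 without control replicate 1), with medians of 0.07 in ethanol and 3.76 in the control. The summed cuticlin level was 26.1 to 32.0 CPM in ethanol, 336 to 821 CPM in the control and 45.1 to 54.9 CPM at time zero. The molting gene mlt-10 stood at 0.457, 0.690 and 0.806 CPM in ethanol, 188, 50.7 and 69.9 CPM in the control and 2.48 to 6.42 CPM at time zero (log2 fold change -7.28 ± 0.57, and -6.50 without control replicate 1). The cuticlin gene cut-2 had 31 and 43.7 CPM in control replicates 2 and 3 but 280 CPM in replicate 1, and its fold change of -7.57 ± 0.79 became -5.91 without that library. For cut-3 the fold change was -6.69 ± 0.45, with 1.11 to 2.68 CPM in ethanol and 92.0 to 281 CPM in the control.

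Epidermal signalling and protease genes fell with them. In the hedgehog-related and patched-related families, which act in the epidermis at molts, 40 of 58 fell and 5 rose (32 of 59 and 7 without control replicate 1, which took the median to -1.40, against -2.59 with it), and the control alone had moved in 18 of the 40, near the 40.4% of all lower genes. The hedgehog-related gene wrt-10 stood at 0.392, 0.153 and 0.806 CPM in ethanol, against 30.6, 64.1 and 48.1 CPM in the control (-6.62 ± 0.49, and -7.29 without ethanol replicate 3). For wrt-1 the log2 fold change was -6.83 ± 0.50 (-7.73 without ethanol replicate 2). Against these, the patched-related ptr-22 rose by 2.67 ± 0.21. Of 29 astacin proteases 20 fell and 2 rose, a count of falls that dropped to 14 without control replicate 1 and to 11 without that library and ethanol replicate 3. The nuclear receptor gene nhr-25, required for molting and epidermal development, had a log2 fold change of -3.37 ± 0.49, and of -2.65 without control replicate 1.

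Collagens divided between the sides. Of 118 cuticle collagen genes 69 fell and 12 rose with ethanol, with a median of -1.64 that became -0.86 without control replicate 1 (54 of 119 lower). Both groups had moved the same way in 31 of the 69, ethanol alone in 18 and the control alone in 10. The family was lower than at time zero in both groups, by a median of -3.66 in ethanol and -1.84 in the control, and its summed level was 4110 to 7540 CPM in ethanol, 17600 to 21500 CPM in the control and 51700 to 64300 CPM at time zero. The adult collagen col-19 stood at 77.6, 175 and 87.6 CPM in ethanol, against 883, 1080 and 1240 CPM in the control, and here ethanol alone had moved (-3.23 ± 0.25, adjusted p = 9.49e-10). In contrast col-121 held 0.196, 1.07 and 0.403 CPM in ethanol and 43.7, 106 and 89.2 CPM in the control, with 1 time zero library above 0, at 0.0672 CPM. For col-167 and col-125 the size of the fall rested on 1 library, although both kept their call without it (adjusted p = 0.00243 and 1.34e-04). Control replicate 1 held 97.6 CPM of col-167 and the other controls 1.06 and 2.52, and its log2 fold change of -6.18 ± 1.2 became -1.93 without that library. For col-125 replicate 1 held 215 CPM and the other controls 4.03 and 6.0, and the value of -5.87 ± 1.08 became -1.97. With limma-voom, col-167 no longer passed (adjusted p = 0.0620). By the rule ethanol alone had moved in both, as it had in C32H11.4 and M153.2, which are not of the col family. The log2 fold change was -7.57 for C32H11.4 (-8.44 without ethanol replicate 2). For M153.2 it was -5.98 (-6.71 without control replicate 1 and ethanol replicate 3).

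Neuropeptide genes fell in most cases through the control. Of 30 FMRFamide-like peptide genes 24 fell and 1 rose, with medians against time zero of 0.41 in ethanol and 1.05 in the control, and the control alone had moved in 18 of the 24. The gene flp-6 stood at 12, 15.1 and 11.3 CPM in ethanol, against 37.3, 51.2 and 54 CPM in the control and 13.5 to 20.0 CPM at time zero (log2 fold change -1.88 ± 0.20). Of 20 synaptic genes 15 fell and 2 rose (14 and 4 without control replicate 1), with medians against time zero of -0.45 in ethanol and 0.64 in the control. Unlike the neuropeptide falls, these were divided: the control alone had moved in 4, ethanol alone in 4, the groups in opposite ways in 2 and neither in 5. The BK potassium channel gene slo-1, whose channel is a known target of ethanol in worm neurons, held 3.33, 2.30 and 3.63 CPM in ethanol and 33.5, 10.1 and 11.2 CPM in the control, with a log2 fold change of -2.55 ± 0.38 that became -1.77 without control replicate 1. For the active-zone gene unc-10 it was -2.13 ± 0.49, and -1.17 without the same library, while unc-64, the syntaxin gene of vesicle fusion, rose by 0.51 ± 0.14. Synaptic genes were long (median 2150 bases), and summed to 477 to 527 CPM in ethanol, 612 to 1020 CPM in the control and 435 to 508 CPM at time zero.

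Several genes known to respond to lack of food fell with ethanol. The alcohol dehydrogenase gene sodh-1 stood at 47.8, 75.2 and 64.1 CPM in ethanol, against 1990, 3280 and 3160 CPM in the control and 34.6 to 41.2 CPM at time zero. Its log2 fold change was -5.50 ± 0.22 (adjusted p = 1.61e-13), and against time zero it was 0.72 in ethanol and 6.22 in the control. Of 14 alcohol and aldehyde dehydrogenase genes 9 fell and 2 rose, the 2 being alh-4 (1.48 ± 0.21) and alh-10 (0.67 ± 0.17). Of 10 genes of the glyoxylate cycle and gluconeogenesis 6 fell and none rose, ethanol alone having moved in 4 of the 6. The glyoxylate cycle gene icl-1 stood at 178, 213 and 292 CPM in ethanol, which spanned its time zero range of 196 to 291 CPM, and at 820, 648 and 575 CPM in the control (-1.58 ± 0.24). The gluconeogenic gene pck-1 held 15.2, 109 and 29.5 CPM in ethanol, 783, 670 and 675 CPM in the control and 149 to 208 CPM at time zero, so that the groups had moved in opposite ways (-3.79 ± 0.46, and -4.98 without ethanol replicate 2).

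The glycerol synthesis gene gpdh-1, which responds to osmotic stress, had fallen far below time zero in both groups and did not pass between them (adjusted p = 0.0534). It held 0.196, 0.537 and 0.173 CPM in ethanol and 0.229, 0 and 0 CPM in the control, from 13 and 3 counts, against 9.87 to 11.5 CPM at time zero. The ratio of the pooled levels of gpdh-1, ethanol over control, was 3.75 (95% exact binomial interval 1.03 to 20.5, which covers counting error only). All 3 control counts of gpdh-1 were in replicate 1, and its adjusted p was 0.00214 without that library, 0.0436 without ethanol replicate 1, 0.0284 without ethanol replicate 3 and 0.0197 with limma-voom. Of 10 genes of glycerol, trehalose and osmolytes 1 rose and 4 fell, with 1 to 4 rises and 1 to 4 falls when single 20 h libraries were left out.

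Lipid genes went both ways. The acyl-CoA synthetase gene acs-2 of fatty acid oxidation stood at 3.59, 11 and 4.78 CPM in ethanol, against 65.3, 257 and 197 CPM in the control and 26.9 to 35.3 CPM at time zero (log2 fold change -4.76 ± 0.44, and -5.36 without ethanol replicate 2). The lipase-like gene lipl-2 held 0.261 to 0.307 CPM in ethanol and 24.4 to 31.2 CPM in the control (-6.58 ± 0.34). The acyl-CoA dehydrogenase gene acdh-1 stood at 5.81, 22.5 and 6.39 CPM in ethanol, at 420, 411 and 414 CPM in the control and at 1720 to 2070 CPM at time zero, below the start in both groups (-5.18 ± 0.39, and -6.08 without ethanol replicate 2). Over 43 genes of fatty acid breakdown 15 rose and 15 fell (34.9% each way, beside 25.0% higher and 28.1% lower over all genes). Among those that rose, hacd-1 held 89 to 116 CPM in ethanol, 4.46 to 11.6 CPM in the control and 139 to 150 CPM at time zero. Of 21 genes of fatty acid synthesis and desaturation 9 rose and 5 fell (42.9% and 23.8%). The falls numbered 2 without ethanol replicate 1 or 2, and 3 without ethanol replicate 3 or time zero replicate 1. The elongase gene elo-5 was higher by 3.28 ± 0.29 and the delta-6 desaturase gene fat-3 lower (-1.26 ± 0.20).

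Sperm genes were higher in ethanol, and most were below time zero in both groups. Of 61 tested, 56 rose and none fell (91.8% higher), with a median log2 fold change of 2.74. Against time zero the median was -1.80 in ethanol and -4.69 in the control, and in 48 of the 56 both groups had moved downwards. Their summed level was 951 to 1020 CPM in ethanol, 221 to 266 CPM in the control and 2590 to 3800 CPM at time zero. The sperm-specific gene ssp-34 stood at 14.9, 11.6 and 15.0 CPM in ethanol, against 0.611, 0.495 and 1.05 CPM in the control and 26.1 to 35.8 CPM at time zero (4.26 ± 0.25, adjusted p = 2.16e-11). Reads of the near-identical major sperm protein genes may be split among copies, which leaves the sum more certain than a member. Sperm genes were also short, with a median exon length of 384 bases.

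**Figure D3:**
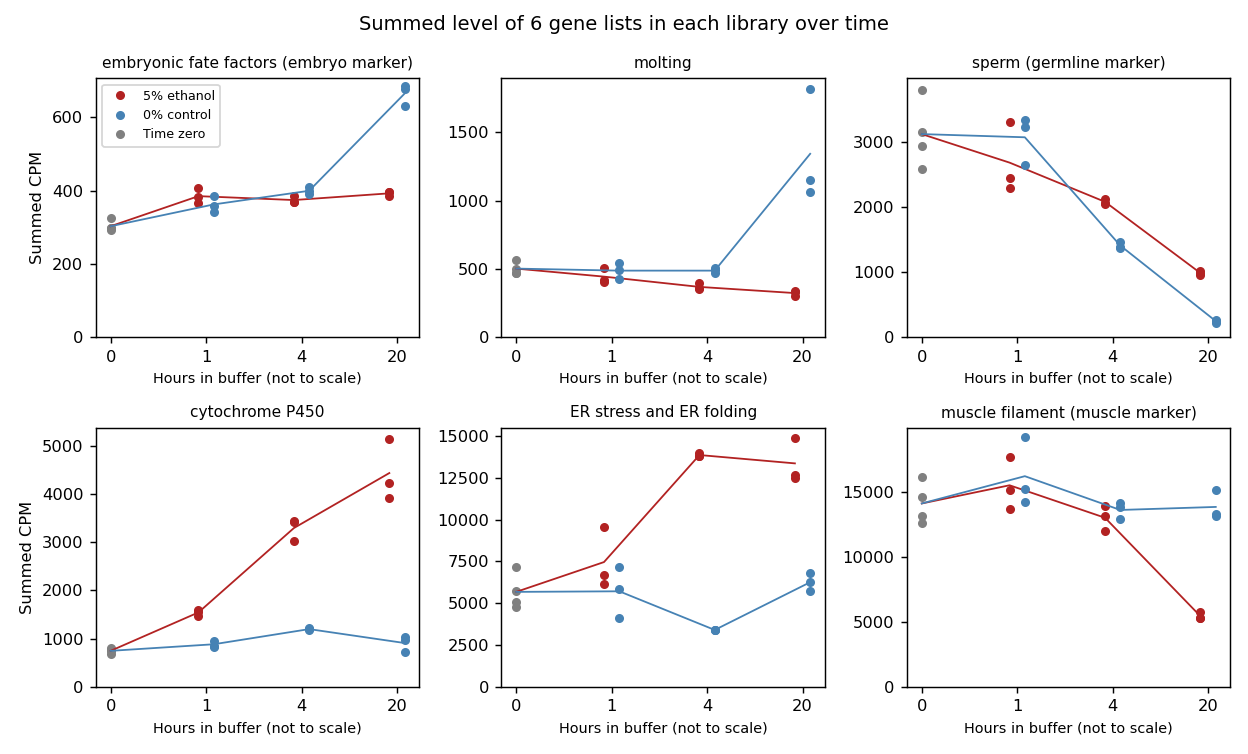
Summed CPM of 6 gene lists in each library of 5% ethanol, the 0% control and time zero, against hours in buffer on an axis not to scale, with lines through group means. At 20 h embryonic fate and molting genes stand highest in the control, sperm genes lowest in the control, P450 and ER genes highest in ethanol, and muscle genes lowest in ethanol.

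Several transferase genes were higher in ethanol, where they lay nearer to time zero than in the control. The UDP-glucuronosyltransferase gene ugt-63 stood at 21.8, 49.6 and 20.5 CPM in ethanol, against 0.0764, 0.565 and 0.325 CPM in the control and 55.8 to 65.9 CPM at time zero (log2 fold change 6.50 ± 0.45, and 7.21 without control replicate 2). For ugt-41 the values were 87.6, 267 and 122 CPM in ethanol, 2.21, 0.707 and 1.14 CPM in the control and 71.0 to 106 CPM at time zero (6.87 ± 0.43, 6.28 without ethanol replicate 2, and 7.65 without control replicate 1 and ethanol replicate 3). Y50D4B.4 and H27M09.5 showed the same class, with 5.30 ± 0.18 and 5.65 ± 0.28.

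Many genes of small-molecule conjugation rose. Of 62 UDP-glucuronosyltransferase genes 40 rose and 9 fell (64.5% higher), with medians against time zero of 0.45 in ethanol and -1.41 in the control. Among the 40, the control alone had moved in 8, ethanol alone in 10 and the groups in opposite ways in 11. Their summed level was 1980 to 2850 CPM in ethanol, 610 to 641 CPM in the control and 1630 to 2160 CPM at time zero, so ethanol overlapped the start. Of 65 cytochrome P450 genes 38 rose and 12 fell, and the sum of 3930 to 5150 CPM in ethanol exceeded both the 728 to 1030 CPM of the control and the 679 to 798 CPM of time zero. Of 46 ABC transporter genes 25 rose and 6 fell, with medians against time zero of -0.28 in ethanol and -0.85 in the control. Among the 25, the control alone had moved in 10 and ethanol alone in 5. Their summed level was 1830 to 2270 CPM in ethanol, 1340 to 1850 CPM in the control and 2120 to 2580 CPM at time zero, so ethanol was not above the start. Of 40 glutathione S-transferase genes 13 rose and 12 fell (32.5% and 30%, near the 25.0% and 28.1% over all genes), and gst-4, a common reporter of the oxidative stress factor SKN-1, did not pass (0.22 ± 0.28, adjusted p = 0.540) at 2.09 to 3.53 CPM in ethanol, 1.70 to 2.84 CPM in the control and 29.5 to 48.5 CPM at time zero. Of 17 redox genes and SKN-1 targets 4 rose and 4 fell (23.5% each way, below the shares over all genes). The rises became 2 without control replicate 1 or ethanol replicate 2, and the falls became 2 without ethanol replicate 1. One of the rises was sod-3, a mitochondrial superoxide dismutase gene, at 3.13, 5.52 and 4.03 CPM in ethanol, against 1.60, 1.2 and 1.46 CPM in the control and 3.63 to 4.77 CPM at time zero (1.56 ± 0.23, adjusted p = 6.69e-06), and here the control alone had moved.

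In another set of these genes ethanol alone had moved. The flavin monooxygenase gene fmo-5 stood at 434, 630 and 614 CPM in ethanol, against 13, 9.68 and 8.68 CPM in the control and 6.96 to 11 CPM at time zero (log2 fold change 5.74 ± 0.24, adjusted p = 1.92e-13). The short-chain dehydrogenase gene dhs-2 held 386, 585 and 526 CPM in ethanol, 10.5, 8.41 and 13.6 CPM in the control and 7.45 to 8.28 CPM at time zero (5.52 ± 0.20). The transferase gene ugt-33 held 54.4, 86.0 and 49.7 CPM in ethanol, 0.306, 1.27 and 0.730 CPM in the control and 0.372 to 0.630 CPM at time zero (6.33 ± 0.38, and 6.92 without control replicate 2). In all 3 genes control and time zero lay close together and ethanol stood apart. Y41C4A.11, B0507.8, dhs-19 and the glutathione S-transferase gene gst-24 belonged to the same class, with log2 fold changes of 5.85, 5.83, 4.30 and 3.47. The P-glycoprotein gene pgp-1 rose by 4.72 ± 0.47, and by 5.77 without control replicate 1. In contrast fmo-2, a monooxygenase linked to longevity in worms, was above time zero in both groups, at 142, 189 and 132 CPM in ethanol and 8.86, 40.7 and 28.7 CPM in the control (2.56 ± 0.35).

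Genes of endoplasmic reticulum stress and folding were higher in ethanol. Of 22 genes of ER stress and folding 12 rose and none fell (54.5% higher), with medians against time zero of 0.80 in ethanol and -0.17 in the control, and of the 12, ethanol alone had moved in 6, neither group in 5, both the same way in 1 and the control alone in none. The BiP chaperone gene hsp-4 stood at 776, 818 and 817 CPM in ethanol, against 230, 202 and 188 CPM in the control and 264 to 455 CPM at time zero (log2 fold change 1.96 ± 0.22, adjusted p = 2.40e-07). The disulfide isomerase gene pdi-6 held 866, 776 and 827 CPM in ethanol and 165, 184 and 168 CPM in the control (2.26 ± 0.14). The choline kinase gene ckb-2, which acts in phosphatidylcholine synthesis, held 197, 217 and 155 CPM in ethanol, 6.49, 13 and 12.2 CPM in the control and 15.1 to 22.2 CPM at time zero (4.16 ± 0.22). The list summed to 12500 to 14900 CPM in ethanol, 5720 to 6800 CPM in the control and 4750 to 7170 CPM at time zero.

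Cytosolic heat shock genes varied between libraries of a group. The small heat shock gene hsp-16.2 stood at 2.94, 44.1 and 2.36 CPM in ethanol and at 1.3, 28.6 and 15.3 CPM in the control, and did not pass (0.11 ± 0.82, adjusted p = 0.920). The chaperone gene hsp-70 stood at 5.75, 112 and 5.29 CPM in ethanol and 3.51, 77.3 and 56.3 CPM in the control (-0.16 ± 0.83, adjusted p = 0.886). Both genes were high in ethanol replicate 2 and low in control replicate 1. Without ethanol replicate 2 the fold changes were -2.51 for hsp-16.2 (adjusted p = 0.00816) and -3.05 for hsp-70 (adjusted p = 0.00130). Of 19 inducible and small heat shock genes 6 rose and 4 fell (31.6% and 21.1%, beside 25.0% and 28.1% over all genes), or 7 fell without ethanol replicate 2. Among them hsp-17 rose by 2.43 ± 0.26, while hsp-12.6, high in worms without food, stood at 71.4, 168 and 121 CPM in ethanol, 253, 479 and 497 CPM in the control and 1.08 to 1.61 CPM at time zero (-1.77 ± 0.32). The mitochondrial chaperone gene hsp-6 did not pass (-0.14 ± 0.39, adjusted p = 0.788), and of 10 mitochondrial stress genes 3 rose and none fell, a count of 1 rise without control replicate 1, ethanol replicate 2 or time zero replicate 1.

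Metal-response and histone genes also rose. Of 7 metal-response genes 4 rose and none fell, or 6 rose and 1 fell without ethanol replicate 1. The metallothionein gene mtl-2 stood at 168, 305 and 163 CPM in ethanol, against 10.2, 14.2 and 16.8 CPM in the control and 30 to 42.6 CPM at time zero (log2 fold change 3.95 ± 0.27). The other metallothionein gene, mtl-1, was far above time zero in both groups and did not pass (0.59 ± 0.27, adjusted p = 0.0736; 0.0303 without control replicate 3, 0.0339 without ethanol replicate 1, 0.0378 with limma-voom and 0.0223 with library sizes alone), at 264, 471 and 307 CPM in ethanol and 125, 271 and 296 CPM in the control. The cadmium-responsive gene cdr-4 rose by 3.53 ± 0.36, and by 2.94 without ethanol replicate 2. Of 29 histone genes 20 rose and 2 fell, ethanol alone having moved in 12 of the 20. Most core histone messages lack a polyA tail, so polyA libraries sample them poorly, and the gene named among the rises was low. The gene his-61 held 10.6, 7.59 and 10.2 CPM in ethanol and 1.99, 3.04 and 2.60 CPM in the control (1.89 ± 0.26). The 2 that fell were the linker histone gene his-24, at 18.5, 37.3 and 28.2 CPM in ethanol and 226, 123 and 112 CPM in the control (-2.46 ± 0.27), and the variant histone gene his-71 (-0.91 ± 0.17).

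Nuclear hormone receptors, a large family of transcription factors in worms, divided by side. Of 195 tested, 45 rose and 47 fell (23.1% and 24.1%, both below the share over all genes). Of the 45 that rose, ethanol alone had moved in 27 and the control alone in 4, whereas of the 47 that fell, ethanol alone had moved in 3 and the control alone in 28. Over all genes, ethanol alone had moved in 18.3% of those higher and the control alone in 40.4% of those lower. The family as a whole was above time zero in both groups, with a median of 0.77 in each. In ethanol 114 were higher and 15 lower than at time zero, and in the control 108 and 17. Among those that rose, nhr-178 stood at 19.9, 13 and 15.7 CPM in ethanol, against 1.22, 0.424 and 0.649 CPM in the control and 0.270 to 0.542 CPM at time zero (log2 fold change 4.38 ± 0.31, and 4.98 without control replicate 1 and ethanol replicate 3). The gene nhr-202 rose by 2.48 ± 0.23.

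**Figure D4:**
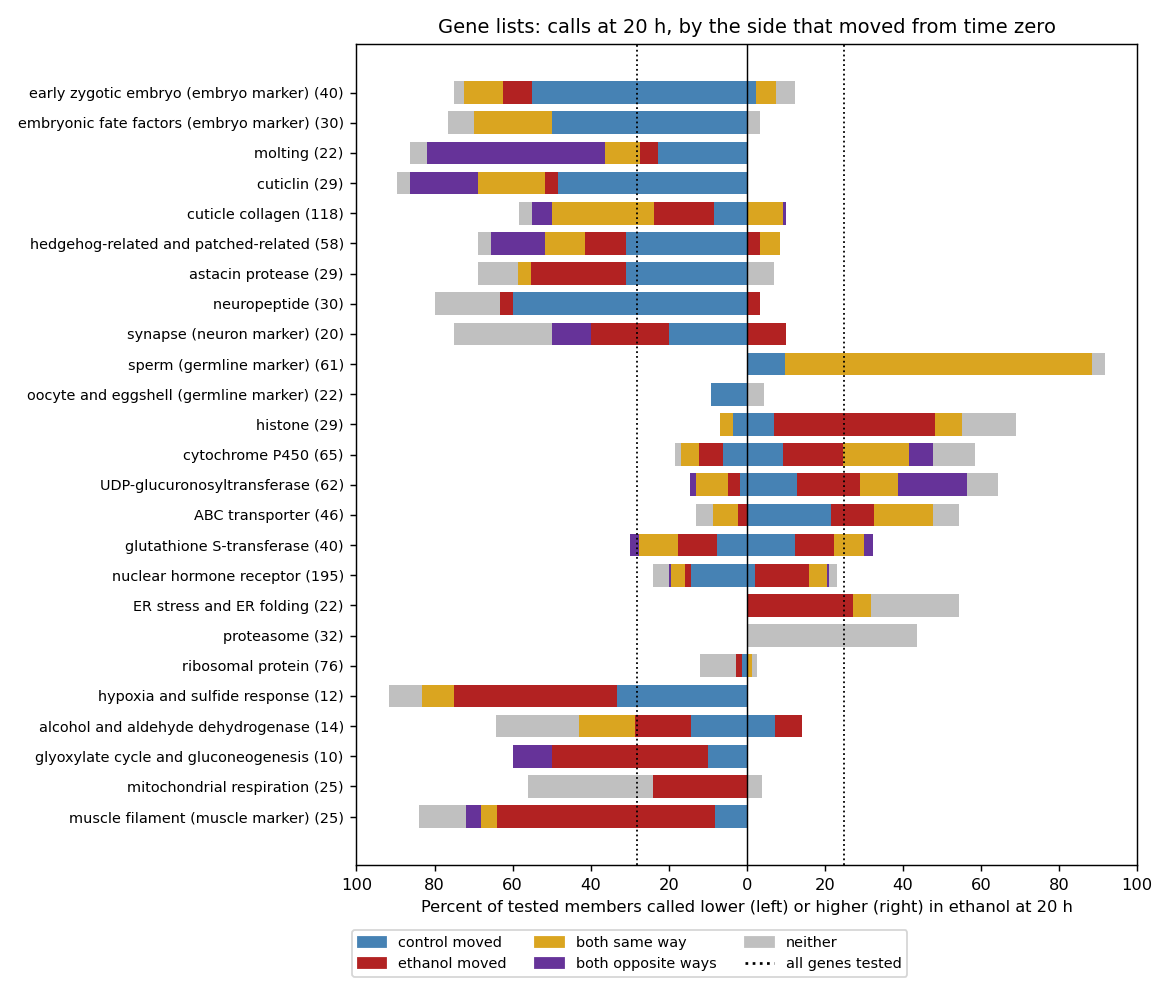
Percent of the tested members of 25 gene lists called higher (to the right) or lower (to the left) in ethanol at 20 h, set against the control, with the number tested in parentheses, coloured by the side that moved from time zero; dotted lines mark 25.0% higher and 28.1% lower among all genes tested. Embryo, cuticlin and neuropeptide bars point left and are mainly of the control, and muscle bars point left and are mainly of ethanol.

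Most muscle genes tested fell in ethanol. Of 25 filament genes 21 fell and none rose (84.0% lower), ethanol alone having moved in 14 of the 21. Against time zero 22 of the 25 were lower in ethanol and none higher (median -1.62), while in the control 4 were higher and 8 lower (median 0.08). The summed level was 5260 to 5720 CPM in ethanol, 13100 to 15100 CPM in the control and 12600 to 16100 CPM at time zero. The troponin I gene tni-1 stood at 5.81, 4.76 and 3.80 CPM in ethanol, against 86.5, 72.4 and 73.6 CPM in the control and 68.9 to 99.8 CPM at time zero (log2 fold change -4.02 ± 0.24, adjusted p = 2.64e-11). The body wall myosin gene myo-3 held 32.3, 21.7 and 30.8 CPM in ethanol, 462, 245 and 257 CPM in the control and 106 to 183 CPM at time zero (-3.50 ± 0.35). Without control replicate 1 the list had 17 falls. Its median exon length was 1510 bases.

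Genes of respiration and of the response to low oxygen fell as well. Of 25 mitochondrial respiration genes 14 fell and 1 rose, the rise being cox-17, an assembly factor of cytochrome c oxidase (0.99 ± 0.24). Ethanol alone had moved in 6 of the 14 and neither group in 8, and the 14 became 8 without ethanol replicate 1 and 9 without control replicate 1 and ethanol replicate 3. The succinate dehydrogenase gene sdha-1 stood at 39.8, 54.7 and 52.7 CPM in ethanol, against 193, 168 and 193 CPM in the control and 120 to 189 CPM at time zero (-1.91 ± 0.22). Of 12 hypoxia and sulfide response genes 11 fell and none rose (91.7% lower), with a median of -2.08. Without ethanol replicate 1, 9 fell and 1 rose. The sulfide quinone oxidoreductase gene sqrd-1 held 2.74, 2.22 and 2.36 CPM in ethanol, 19.9, 35 and 31.8 CPM in the control and 17.8 to 19.5 CPM at time zero (-3.56 ± 0.19). In phy-2, a prolyl hydroxylase gene of collagen synthesis, the control had moved instead: 21.5, 94.1 and 19.6 CPM in ethanol, 349, 752 and 701 CPM in the control and 35.4 to 47.5 CPM at time zero (-3.74 ± 0.46, and -4.87 without ethanol replicate 2).

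Intestinal genes went both ways. Of 11 intestine markers 4 rose and 6 fell (36.4% and 54.5%, beside 25.0% and 28.1% over all genes). Their summed level was 393 to 605 CPM in ethanol, 840 to 1070 CPM in the control and 2430 to 2900 CPM at time zero. The gut cathepsin gene cpr-6 stood at 33.1, 52.9 and 43.6 CPM in ethanol, against 420, 540 and 600 CPM in the control and 591 to 658 CPM at time zero (log2 fold change -3.59 ± 0.17). The intestinal filament gene ifb-2 had -3.46 ± 0.32, and elt-2, the GATA factor of the intestine, rose by 1.64 ± 0.36 (2.51 without control replicate 1). Of 20 gut and lysosomal proteases 4 rose and 9 fell (20.0% and 45.0%). The aspartyl protease gene asp-10 stood at 513, 730 and 397 CPM in ethanol, 13.1, 15.0 and 15.0 CPM in the control and 95.1 to 127 CPM at time zero (5.25 ± 0.23). Of 30 lysozyme and saposin-like genes 16 fell and 5 rose (3 to 8 with single 20 h libraries left out), with the saposin-like gene spp-1 at -4.55 ± 0.24. Among 133 C-type lectins 27 rose and 48 fell (20.3% and 36.1%, beside 25.0% and 28.1% over all genes). Among 43 antimicrobial peptide genes 11 rose and 12 fell (25.6% and 27.9%, close to the same shares over all genes). The 12 became 7 without ethanol replicate 1 and 6 without control replicate 1 and ethanol replicate 3. The epidermal peptide gene nlp-29 was barely called (-0.95 ± 0.40, adjusted p = 0.0493) and had -0.13 without control replicate 1.

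Most yolk protein genes were below time zero in both groups, but their summed level was below it only in ethanol. The sum was 11200 to 25900 CPM in ethanol, 43800 to 83800 CPM in the control and 47100 to 72200 CPM at time zero. Of 6, 5 were lower than at time zero in ethanol and none higher (median -3.64), and 4 were lower and 1 higher in the control (median -3.30). The gene called higher than time zero in the control was vit-2, which stood at 8750, 17600 and 16800 CPM in ethanol, against 29000, 44000 and 54600 CPM in the control and 12900 to 19600 CPM at time zero, and by the rule the control alone had moved (log2 fold change -1.57 ± 0.35, adjusted p = 0.000714). For vit-5 ethanol alone had moved, with 1660, 4250 and 3430 CPM in ethanol, 10400, 16100 and 19800 CPM in the control and 8530 to 13300 CPM at time zero (-2.31 ± 0.37). Of the 6 yolk genes 4 fell and vit-3 rose, by 1.98 ± 0.47 (1.15 without ethanol replicate 2), at 73.3 to 393 CPM in ethanol and 29.6 to 64.5 CPM in the control. These genes are near-identical in part, so reads may be split among them.

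Proteasome genes differed by small amounts. Of 32 proteasome genes 14 rose and none fell (43.8% higher), with a median of 0.31, and neither group had moved by a log2 fold change of 1 in any of the 14. The subunit gene rpn-12 held 249, 273 and 195 CPM in ethanol and 85.4, 136 and 141 CPM in the control (0.98 ± 0.19). Of 27 autophagy genes 10 rose and 2 fell. The gene lgg-1, whose protein marks autophagosomes, stood at 1300, 1510 and 1140 CPM in ethanol, 480, 768 and 730 CPM in the control and 264 to 381 CPM at time zero, above the start in both groups (1.00 ± 0.20). One of the falls was epg-2, which acts in clearing protein granules in embryos, at 26.4, 19.6 and 19.7 CPM in ethanol, 172 to 288 CPM in the control and 5.96 to 7.83 CPM at time zero (-3.40 ± 0.21). Of 76 ribosomal protein genes 2 rose and 9 fell (2.63% and 11.8%, both below the shares over all genes). The falls numbered 3 to 5 without control replicate 1 or 3 or without any 1 ethanol library, and 15 without time zero replicate 1. The median of -0.13 became 0.04 with library sizes alone. The 32 replication and cell cycle genes gave 7 rises (21.9%, below the 25.0% over all genes) and no fall. The rises became 2 without control replicate 1, 4 without ethanol replicate 1 and 3 without ethanol replicate 2.

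Most genes called at 20 h were not called the same way at 4 h. At 4 h, in other libraries, 4664 genes passed between ethanol and control (30.5%). Of all genes tested, 17.1% were higher and 13.4% lower at 4 h, the shares to set beside the overlaps. Genes higher at both times numbered 1726, which is 45.0% of those higher at 20 h and 66.1% of those higher at 4 h, and 166 genes higher at 20 h were lower at 4 h. Genes lower at both times numbered 1280, or 29.7% of those lower at 20 h and 62.4% of those at 4 h, and 316 went the opposite way at 4 h. The ethanol effect itself differed between the times in 4952 genes (32.3%), 2358 with a higher and 2594 with a lower log2 fold change at 20 h. Cuticlins, molting genes and sperm genes were among them: the effect was lower at 20 h in 22 of 29, 16 of 22 and none of 61, and higher in none, none and 51. For the early zygotic genes it differed in 3 of 40, and 28 of the 40 were lower at 4 h too. The other embryo list went differently. Of the 30 cell fate factors, 5 were lower and 6 higher at 4 h. Their effect was lower at 20 h in 20 and higher in 2. The ER list was farther from the control at 4 h (median 1.43) than at 20 h (median 0.85), with a smaller effect at 20 h in 9 of 22 genes. The summed ER list in ethanol overlapped between the times, at 13800 to 14000 CPM at 4 h and 12500 to 14900 CPM at 20 h. In the control the sum was higher at 20 h, at 5720 to 6800 CPM, than at 4 h, at 3370 to 3420 CPM. The gene acs-2 had a log2 fold change of -4.76 ± 0.44 at 20 h and of 2.72 ± 0.41 at 4 h.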

How the data were processed

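PolyA RNA of whole N2 worms was sequenced from Kapa mRNA HyperPrep libraries. The authors deposited 1 table of raw read counts by gene. Per the submitters' processing notes, reads were handled with the trimmers Trimmomatic 0.39 and fastp 0.23.2, the aligner STAR 2.7.9a and the counter featureCounts (Subread 2.0.3), on build ce10. Annotation, strand setting and treatment of multi-mapped reads are not stated in these sources, so counts of near-identical, overlapping or antisense genes are uncertain. Gene symbols are those of the table, exon lengths come from WBcel235 (89.0% of tested genes), and no coordinates or sequences are given.

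Groups and replicate numbers were read from the labels. These speak of biological replicates but not of separate cultures, and p-values reflect only the spread seen between libraries, which may be technical. No 2 libraries were identical. Genes passing filterByExpr (minimum count 10, minimum total 15; 99.9% of counts) were fitted with edgeR 4.0.16 in R 4.3.3 over all 22 libraries, with 7 group means, TMM scaling, robust quasi-likelihood fits and F-tests (two-sided), and Benjamini-Hochberg adjustment over all 15310 genes. SE is the fold change divided by the square root of F. Deviations from the group means of same-numbered ethanol and control libraries gave correlations of -0.11, 0.19 and -0.36. With 3 libraries a group these cannot show whether same-numbered libraries shared a culture or day, which the labels do not say. The main fit used no pairing.

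The 43 gene lists, the members and the rules were chosen with earlier results of these data known, so lists are described by counts and medians without a test. The rule for named genes took, where all 3 libraries of a group lay on one side, each group held at least 10 counts and the mean was at least 5 CPM, the 8 largest changes each way, the 4 largest in each of the classes where one side alone moved, and the 2 largest called members of each list each way. It also took 18 genes given whatever their result. Some genes that the rule took, other than the 18, are not described in the text. The tests were tried on simulated counts. Alternatives were DESeq2 1.42.0, limma-voom 3.58.1, changed scaling and filters, a fit on only the groups compared, a block for replicate number, other definitions of moved and each library of time zero, 4 h and 20 h left out. Depth is given above as the range of library totals, and genes of under 10 counts in a group have imprecise fold changes.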

Additional observations from a re-analysis of the deposited data

Results flagged for a closer look

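The ethanol effect at 20 h differed from that at 4 h in 15 of the 16 genes with the largest changes at 20 h (edgeR test of the difference, adjusted p under 0.05). Among the rises the log2 fold change was larger at 20 h than at 4 h by 6.33 for fat-5, 5.64 for ugt-37, 3.65 for cyp-25A1, 3.43 for C40H1.8, 2.71 for oac-14, 1.47 for ugt-25 and 1.15 for cyp-35C1. The effect on gba-2 was smaller at 20 h, with a difference of -2.81, from log2 fold changes of 7.92 at 20 h and 10.72 at 4 h. Among the falls the difference was -8.95 for glf-1, -8.26 for lpr-3, -7.79 for lpr-4, -7.19 for dpy-14, -6.92 for dpy-17 and -6.46 for sqt-3. For F13B12.4 it was -14.65, since the gene was lower in ethanol at 20 h (-8.80) and higher at 4 h (5.86). Since all 16 were chosen for their size at 20 h, larger effects at 20 h are partly a matter of that choice.

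Of 165 named genes, 11 had 1 time zero library far from the other 3, which at a 95% critical value chance alone gives in a small share of groups. Replicate 1 was the library apart for 8 of them, the one that also scored highest at time zero on the main axis within groups. It stood high at 574 CPM for rpl-11.2, 353 CPM for rpl-25.1, 205 CPM for ucr-2.1, 504 CPM for perm-2, 183 CPM for myo-3 and 6.42 CPM for mlt-10, and low at 13.8 CPM for clec-57 and 4.00 CPM for flp-27. Replicate 2 was apart for glf-1 at 3.36 CPM, dhs-29 at 11.1 CPM and col-121 at 0.0672 CPM. The part of these libraries in the side that moved was not tested gene by gene, and the counts of genes by side without each of them are given below.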

How the results depend on the processing

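The counts of genes higher and lower at 20 h kept within 1.5 times of 3833 and 4309 under other tools, scaling factors, filters and left-out libraries. When tested against a log2 fold change of 1 they were 1960 and 2304. With each library of time zero, 4 h and 20 h left out in turn (those of 1 h were not) the counts ran from 3379 to 4200 higher and from 3797 to 4402 lower at 20 h, from 8004 to 8929 for the control against time zero, from 6819 to 8889 for ethanol against time zero, and from 4295 to 5148 for the effect at 20 h against 4 h. By side, higher and then lower in ethanol, they ran from 788 to 887 and 1666 to 1845 for the control alone, 656 to 772 and 631 to 776 for ethanol alone, 982 to 1088 and 605 to 724 for both the same way, 89 to 109 and 190 to 268 for both in opposite ways, and 715 to 1421 and 643 to 870 for neither. The 715 was without control replicate 1 of 20 h. Counting a move by adjusted p alone gave 1118 lower genes for both the same way, 228 higher and 452 lower for opposite ways, and 278 higher and 233 lower for neither. By adjusted p alone, ethanol alone had moved in 1007 higher genes and the control alone in 737. That reverses the order of the main rule, with 700 and 818. A move by fold alone gave 401 lower genes for opposite ways. Asking for at least 10 counts behind a move, an alternative chosen after seeing the data, left 1749 lower genes for the control alone and 710 higher for ethanol alone. Library sizes without scaling factors shifted the median log2 fold change of all genes from -0.06 to 0.10 and the share of calls that were lower from 52.9% to 46.3%.

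Whether the replicate numbers pair the libraries is not stated in the labels. With a replicate block 3608 genes were higher and 4109 lower at 20 h, 7760 and 7254 differed from time zero in the control and in ethanol, and 4464 differed in effect from 4 h. Over the named genes and all alternatives, 4182 values kept direction and call, 82 lost the call, 13 gained it, 8 of these for gpdh-1, and 13 changed sign. The sign changed for hsp-16.2 with limma-voom (-0.40), with the replicate block (-0.11) and with libraries left out (-2.51 to 0.98), for hsp-70 with libraries left out (-3.05 to 0.45), for hsp-6 with library sizes alone (0.01), without control 1 and ethanol 3 (0.17) and with single libraries left out (-0.31 to 0.27), and for cpg-1 with libraries left out (-0.76 to 0.27). The cause was not tested. Genes of under 10 counts in a group, such as hch-1 in ethanol, set the limit that depth gives.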
